A study of Homo sapiens with 9 samples.

Results

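The integrated stress response regulators were followed here as 10 genes: ATF4, ATF3, ATF5, CEBPB, CEBPG, DDIT3, DDIT4, TRIB3, SESN2 and CHAC1. They were chosen by name, as ATF and C/EBP factors of this response and genes it is known to control. Earlier results of these data were known when the 10 and the pathway lists below were chosen. Each symbol matched 1 of the 60234 gene identifiers in the count table. RNA was sequenced from Ramos, a B cell line from a Burkitt lymphoma without EBV, in which MYC is under an immunoglobulin locus. Cells were untreated (0 h) or were exposed to CHIR99021 at 3 µM, over 3 h or 6 h. CHIR99021 is a small molecule inhibitor of the kinase GSK-3. Each time had 3 biological replicates, numbered 1, 2 and 3 at 0 h, 5, 6 and 7 at 3 h, and 9, 10 and 11 at 6 h. All came from this 1 line, and none of the libraries came from untreated cells harvested at the later times, so drug and time in culture cannot be told apart.

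The integrated stress response begins with kinases that phosphorylate the alpha subunit of the initiation factor eIF2, each sensing a different stress such as amino acid shortage, unfolded protein in the endoplasmic reticulum, double-stranded RNA or heme shortage. This lowers translation in general but lets ribosomes reach the coding sequence of ATF4, whose protein then pairs with C/EBP factors and turns on genes for amino acid supply, tRNA charging, redox balance and, under lasting stress, cell death. Much of ATF4 regulation is therefore translational, and RNA levels do not report the phosphorylation of eIF2 or the amount of ATF4 protein. Neither was measured here.

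Libraries held 46359911 to 52880876 reads in genes, and all 10 regulators were among the 15847 genes with enough reads for a test. Levels are normalised counts (CPM, scaled by TMM factors), and changes are log2 fold changes with their standard error (SE) from an edgeR quasi-likelihood fit over all 9 libraries. A gene was called when its Benjamini-Hochberg adjusted p over all 15847 genes was under 0.05. Untreated replicate 3 stood apart, with a chi-square per degree of freedom of 32.6 and 29.2 against replicates 1 and 2, whereas those 2 gave 1.75 against each other and pairs within the treated times 2.74 to 13.95. B cell markers were present, 10 of 10 tested, with a summed level of 3787 to 3834 CPM at 0 h, 3476 to 3581 CPM at 3 h and 3736 to 3884 CPM at 6 h. Single markers moved in both directions under this sum, with 4 called higher and 5 lower at 3 h, and 4 and 5 at 6 h. Over all tested genes 32.8% were called higher and 33.5% lower at 3 h, and 35.7% and 35% at 6 h. MS4A1 averaged 268 CPM at 0 h and 520 CPM at 6 h, and BCL6 549 CPM and 281 CPM. None of 8 T and NK cell, 8 myeloid or 8 epithelial and fibroblast markers had enough reads for testing, and 3, 3 and 5 of these were at 0 in all libraries. Their summed levels were low. The myeloid and the epithelial and fibroblast lists reached at most 0.208 and 0.0358 CPM in any library, and the T and NK cell list held 0.172 to 0.215 CPM at 0 h, 0.0196 to 0.0643 CPM at 3 h and 0.0231 to 0.0638 CPM at 6 h. In bulk RNA, a lower level in each cell and fewer cells that hold the transcript cannot be told apart.

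The promoters of the regulators were searched for 3 motifs that bear on this family, in the 250 bases before each RefSeq start (GRCh38.p14, all 10 genes with at least 1 window). The C/EBP-ATF response element was searched as TGATGNAA on both strands, the cyclic AMP response element as TGACGTCA and the E-box as CACGTG, which both read the same on either strand. The C/EBP-ATF element lay in windows of 3 of the 10 genes, ATF3, CEBPG and CHAC1, against 3.89% of 27305 genes and 3.14% of all 35116 windows. The E-box lay in windows of 1 of the 10, ATF4, against 7.73% of genes and 6.34% of windows. The cyclic AMP response element lay in none of the 10, against 2.03% of genes and 1.65% of windows. The sites are shown because the words are those that ATF, C/EBP and E-box factors are known to recognise. All are read on the plus strand with the motif in capitals.
ATF4, chr22:39520465-39520494: ggaggagacggtCACGTGgtcgcggcggaa
ATF3, chr1:212565186-212565253: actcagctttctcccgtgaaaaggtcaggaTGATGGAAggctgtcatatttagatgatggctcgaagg
CEBPG, chr19:33374041-33374108: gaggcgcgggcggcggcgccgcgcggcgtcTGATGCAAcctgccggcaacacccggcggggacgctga
CHAC1, chr15:40953251-40953280: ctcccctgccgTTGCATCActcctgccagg
The ATF4 site began 82 and 85 bases before its 2 listed starts, and those of ATF3, CEBPG and CHAC1 began 191, 42 and 209 bases before a start. The CHAC1 site runs on the minus strand, so its capitals are the reverse complement of the searched word. The printed stretches of ATF4 and CHAC1 lie before the RefSeq starts but overlap, at least in part, exons that GENCODE v29 gives for the same gene. Whether the motif itself lies in an exon was not checked. None of the printed sites matched more than 1 motif. A match is a word in the sequence and not evidence of binding, and a window without one says nothing about the factor.

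Most of the 10 regulators fell under CHIR99021, and the fall went further between 3 h and 6 h. At 3 h, 8 were lower and 2, ATF4 and ATF5, were higher than at 0 h, with a median log2 change of -0.65 (1.57-fold lower). In this comparison 66.3% of all tested genes were called, 32.8% higher and 33.5% lower, with a median over all tested genes of -0.01. At 6 h, 9 were lower than at 0 h and 1, ATF5, was higher, with a median of -1.43 (2.70-fold lower), and 7 were lower by at least 2-fold. There 70.8% of all tested genes were called, 35.7% higher and 35% lower, around a median of 0.02. At 6 h all 10 were lower than at 3 h, with a median of -0.56, where 43.4% of tested genes were called, 21.5% higher and 21.9% lower, around a median of 0.01. A called change was thus common among the tested genes. The 3 comparisons share libraries, so they are not independent of each other.

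**Figure D1:**
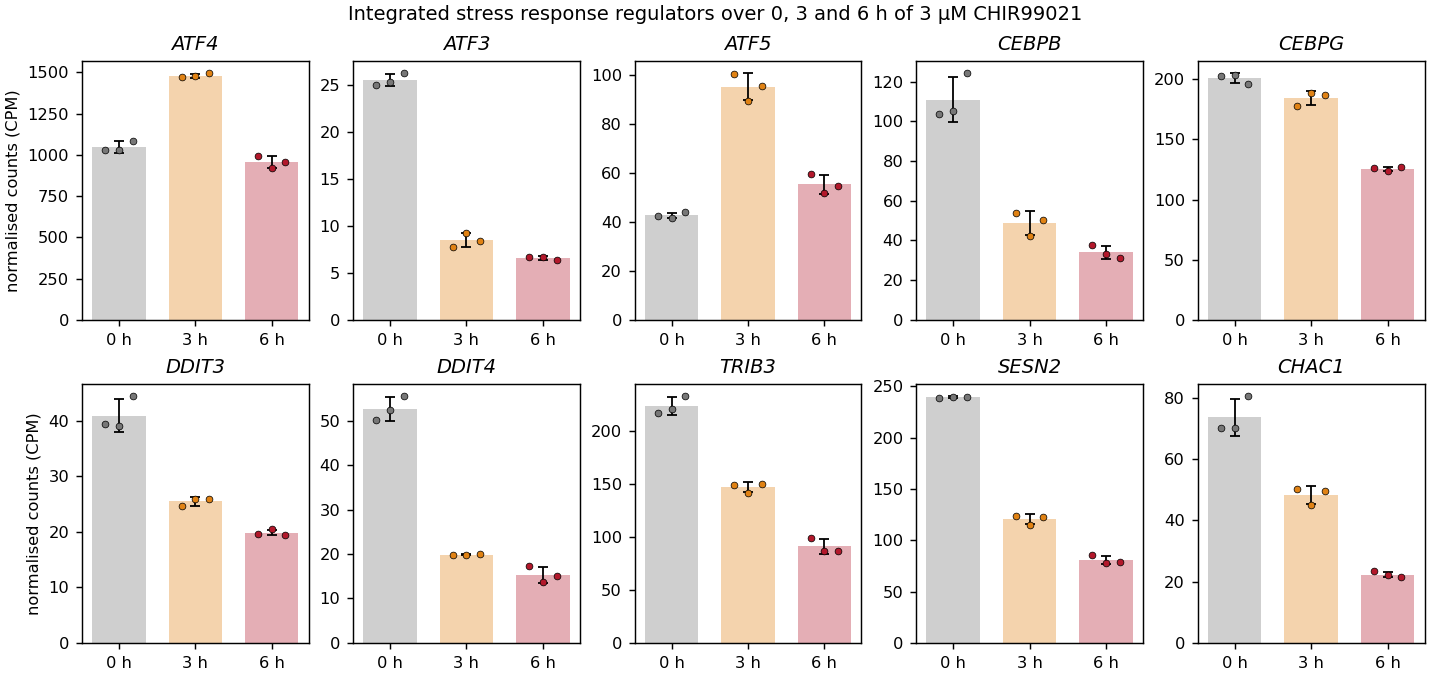
Normalised counts (CPM, vertical axes starting at 0) of the 10 regulators at 0 h, 3 h and 6 h of 3 µM CHIR99021. Bars are means, error bars SD and points the 3 libraries of each time; ATF4 and ATF5 stand highest at 3 h, and the other 8 are highest at 0 h and lowest at 6 h.

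ATF4 is the central transcription factor of the response. Its transcript (ENSG00000128272) stood at 1029.8, 1027 and 1087 CPM at 0 h, 1469, 1479 and 1494 CPM at 3 h, and 991, 922 and 957 CPM at 6 h. All 3 libraries at 3 h were above all others, and the 6 h libraries lay just below the untreated ones without overlap. The 3 h level was 1.41-fold higher than at 0 h (log2 change 0.50, SE 0.0463, edgeR adjusted p = 3.68e-07). The 6 h level was 1.55-fold lower than at 3 h (log2 change -0.63, SE 0.0464, adjusted p = 2.54e-07). Against 0 h the 6 h level was 1.10-fold lower, a log2 change of -0.13 (95% interval -0.23 to -0.03, adjusted p = 0.0208), and this call was lost without 6 h replicate 10 (log2 change -0.10, adjusted p = 0.0664) and against a minimum fold of 1.2. With library size as the only scaling, which moved the median of all genes to -0.22 in both comparisons with 0 h, the change of ATF4 was 0.30 at 3 h and -0.37 at 6 h. ATF4 was the only one of the 10 to be higher at 3 h and lower at 6 h than untreated cells, a course that 0.795% of tested genes followed. Processed pseudogenes of ATF4 drew few reads, at most 417 in a library, against 41478 to 75544 for ATF4 itself.

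ATF5, a close relative of ATF4 whose translation is also favoured when eIF2 is phosphorylated, had the largest rise of the 10. Its transcript (ENSG00000169136) stood at 42.2, 41.7 and 43.9 CPM at 0 h, 100.2, 89.3 and 95.5 CPM at 3 h, and 59.5, 51.9 and 54.7 CPM at 6 h. The 3 groups did not overlap, with 3 h on top and 0 h at the bottom. ATF5 was 2.23-fold higher at 3 h than at 0 h (log2 change 1.16, SE 0.0612, adjusted p = 1.37e-09) and 1.30-fold higher at 6 h than at 0 h (0.38, SE 0.0613, adjusted p = 7.55e-05). Between the treated times it was 1.72-fold lower at 6 h than at 3 h (-0.78, SE 0.0608, adjusted p = 4.49e-07). With library size as the only scaling, the change at 6 h against 0 h was 0.14 (adjusted p = 0.0357). ATF5 lies opposite NUP62, a nuclear pore gene, which averaged 173 ± 2.84 CPM at 0 h, 287 ± 8.67 CPM at 3 h and 271 ± 10.5 CPM at 6 h (SD, n = 3 each). The sources used here do not say whether reads were counted by strand, so the ATF5 values are uncertain to that extent.

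ATF3 is a bZIP factor that ATF4 induces and that can repress as well as activate. It had the steepest fall of the 10 against untreated cells at both times. Its transcript (ENSG00000162772) stood at 24.96, 25.3 and 26.2 CPM at 0 h, 7.76, 9.22 and 8.41 CPM at 3 h, and 6.64, 6.70 and 6.32 CPM at 6 h. The mean fell to 33.2% of the untreated level at 3 h and to 25.7% of it at 6 h, and no groups overlapped. It was 3.01-fold lower at 3 h than at 0 h (log2 change -1.59, SE 0.0702, adjusted p = 2.94e-10) and 3.89-fold lower at 6 h than at 0 h (-1.96, SE 0.0725, adjusted p = 3.75e-11). Of the 6 h log2 change, 81.1% was already there at 3 h. The later step, -0.37 at 6 h against 3 h (SE 0.0763, adjusted p = 0.00144), was no longer called when a fold of at least 1.2 was required (adjusted p = 0.132).

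The 2 C/EBP factors are partners of ATF4 in heterodimers. CEBPB (ENSG00000172216), also known for inflammatory and myeloid genes, stood at 104, 105 and 124 CPM at 0 h, 54.0, 42.1 and 50.4 CPM at 3 h, and 37.7, 33.3 and 31.4 CPM at 6 h. Replicates spread more for CEBPB than for most of the others, with a coefficient of variation of 9.50% to 12.5%, and untreated replicate 3 was the high one at 0 h. CEBPB was 2.27-fold lower at 3 h (log2 change -1.18, SE 0.102, adjusted p = 8.48e-07) and 3.25-fold lower at 6 h (-1.70, SE 0.104, adjusted p = 3.38e-08) than at 0 h. Without untreated replicate 3 these log2 changes were -1.10 and -1.62. At 6 h CEBPB was 1.43-fold lower than at 3 h (-0.52, SE 0.104, adjusted p = 0.00192).

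CEBPG, a C/EBP protein without a strong activation domain of its own, had the smallest change of the 10 at 3 h with TMM scaling. Its transcript (ENSG00000153879) stood at 203, 204 and 196 CPM at 0 h, 178, 189 and 187 CPM at 3 h, and 126, 124 and 127 CPM at 6 h. The 3 h libraries lay just under the untreated ones, and the 6 h libraries well under both. The change at 3 h against 0 h was -0.12 (1.09-fold lower, 95% interval -0.22 to -0.03, adjusted p = 0.0260), and the call was lost without untreated replicate 1 or 2 (adjusted p = 0.0609 and 0.0717) and without 3 h replicate 5 or 7 (adjusted p = 0.126 and 0.0677). The size of this change depended on the scaling, with -0.28 under upper-quartile factors (adjusted p = 4.57e-05) and -0.33 under library size alone (adjusted p = 1.45e-05). At 6 h CEBPG was lower than at 0 h (-0.68, SE 0.0452, adjusted p = 9.83e-09) and 1.47-fold lower than at 3 h (-0.55, SE 0.0452, adjusted p = 6.69e-07). With TMM scaling, 18.2% of its 6 h log2 change was present at 3 h, the smallest share among the 8 genes that fell at both times. That of CEBPB was 69.6%. The 6 h change of CEBPG was -0.82 under upper-quartile factors and -0.91 under library size alone, so its share depended on the scaling.

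DDIT3 encodes CHOP, the bZIP factor that carries the response towards cell death when stress lasts. Its transcript (ENSG00000175197) stood at 39.4, 39.2 and 44.4 CPM at 0 h, 24.6, 25.9 and 26.0 CPM at 3 h, and 19.7, 20.5 and 19.5 CPM at 6 h. The groups did not overlap, and untreated replicate 3 was again the highest library. DDIT3 was 1.61-fold lower at 3 h (log2 change -0.68, SE 0.0595, adjusted p = 1.92e-07) and 2.06-fold lower at 6 h (-1.04, SE 0.0606, adjusted p = 2.36e-09) than at 0 h. The step at 6 h against 3 h was -0.36 (adjusted p = 0.000354) and was likewise not called with a required fold of 1.2 (adjusted p = 0.103). DDIT3 lies opposite MARS1, the methionyl-tRNA synthetase and itself an ATF4 target, which averaged 516 ± 3.45 CPM at 0 h, 379 ± 4.37 CPM at 3 h and 343 ± 11.5 CPM at 6 h (SD, n = 3 each). With the strand setting unknown, reads of MARS1 counted for DDIT3 cannot be separated from its own. Reads of DDIT3 may also have been set aside as ambiguous.

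CHOP and ATF4 together induce TRIB3 and CHAC1. TRIB3, a pseudokinase that feeds back on ATF4 and CHOP and binds AKT, stood at 218, 222 and 233 CPM at 0 h, 149.8, 142 and 150.2 CPM at 3 h, and 99.1, 87.1 and 87.4 CPM at 6 h (ENSG00000101255). Each time was lower than the one before without overlap, by 1.52-fold at 3 h against 0 h (log2 change -0.61, SE 0.0575, adjusted p = 4.63e-07) and by 1.61-fold at 6 h against 3 h (-0.69, SE 0.0582, adjusted p = 8.87e-07). At 6 h it was 2.46-fold lower than at 0 h (-1.30, SE 0.0585, adjusted p = 2.21e-10).

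CHAC1, an enzyme that breaks down glutathione, had the steepest late fall. Its transcript (ENSG00000128965) stood at 70.0, 70.3 and 80.4 CPM at 0 h, 50.1, 44.9 and 49.6 CPM at 3 h, and 23.4, 22.02 and 21.5 CPM at 6 h. No libraries of different times overlapped. CHAC1 was 1.53-fold lower at 3 h than at 0 h (log2 change -0.61, SE 0.0653, adjusted p = 1.58e-06) and 2.16-fold lower at 6 h than at 3 h (-1.11, SE 0.0685, adjusted p = 5.59e-08). This was the only step of at least 2-fold among the 10 between 3 h and 6 h. At 6 h CHAC1 was 3.297-fold lower than at 0 h (-1.72, SE 0.0684, adjusted p = 7.19e-11).

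DDIT4 and SESN2 encode REDD1 and sestrin 2, inhibitors of mTORC1 that ATF4 and other stress factors such as p53 induce. DDIT4 (ENSG00000168209) stood at 50.1, 52.3 and 55.4 CPM at 0 h, 19.8, 19.8 and 19.97 CPM at 3 h, and 17.3, 13.8 and 14.97 CPM at 6 h. Most of its fall was early, 2.65-fold at 3 h against 0 h (log2 change -1.41, SE 0.0716, adjusted p = 9.90e-10), which made up 79.1% of the 6 h log2 change. The 6 h level was 3.43-fold lower than at 0 h (-1.78, SE 0.0734, adjusted p = 1.01e-10). The step of -0.37 at 6 h against 3 h (adjusted p = 0.00125) was lost with that required fold of 1.2 (adjusted p = 0.125).

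SESN2 (ENSG00000130766) stood at 238, 240.0 and 239 CPM at 0 h, 123, 115 and 123 CPM at 3 h, and 85.7, 77.9 and 79.1 CPM at 6 h. The untreated libraries were nearly level, with a coefficient of variation of 0.315%, and all treated libraries lay far below them. SESN2 was 1.99-fold lower at 3 h (log2 change -0.99, SE 0.0510, adjusted p = 1.08e-09) and 2.96-fold lower at 6 h (-1.56, SE 0.0519, adjusted p = 1.52e-11) than at 0 h. At 6 h it was 1.49-fold lower than at 3 h (-0.57, SE 0.0513, adjusted p = 1.48e-06).

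**Figure D2:**
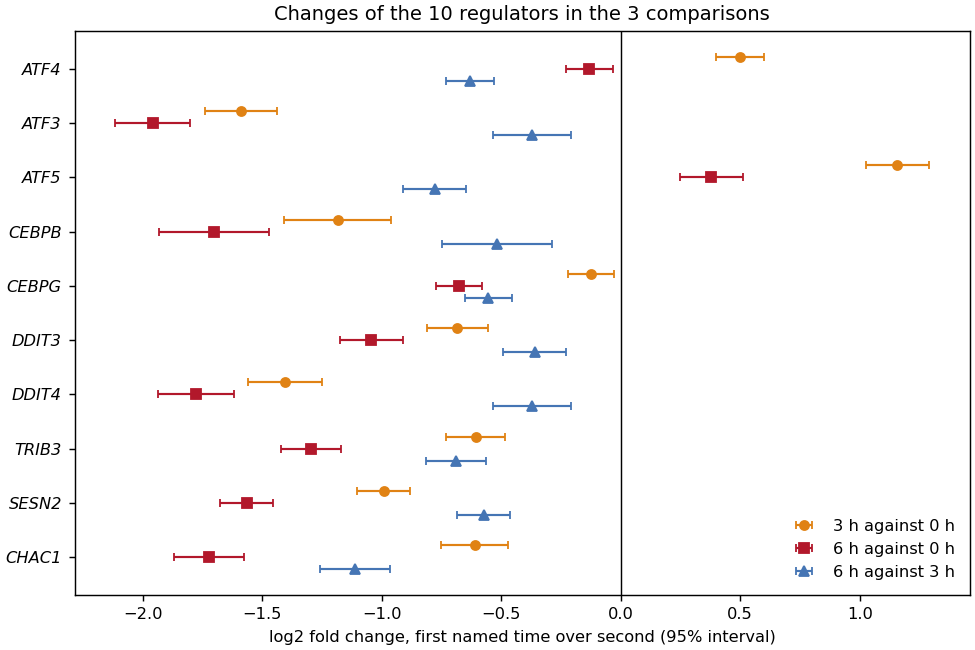
Log2 fold change of each regulator (horizontal axis) at 3 h against 0 h, 6 h against 0 h and 6 h against 3 h, with 95% intervals from the edgeR fit on 9 libraries. ATF4 and ATF5 lie right of 0 at 3 h against 0 h (0.50 and 1.16), ATF5 alone does at 6 h against 0 h (0.38), and all 10 lie left of 0 at 6 h against 3 h.

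Apart from ATF4 and ATF5, the 8 genes were lower in all 3 comparisons, a pattern that 8.54% of tested genes had. Higher at 3 h than at 0 h and lower at 6 h than at 3 h held for ATF4 and ATF5 and for 8.72% of tested genes. The share of the 6 h log2 change already present at 3 h ordered the 8 genes from early to late as ATF3 (81.1%), DDIT4 (79.1%), CEBPB (69.6%), DDIT3 (65.5%), SESN2 (63.4%), TRIB3 (46.8%), CHAC1 (35.4%) and CEBPG (18.2%). The 3 genes with a C/EBP-ATF word in their windows, ATF3, CHAC1 and CEBPG, thus lay at both ends of this order. These shares were taken with TMM scaling, use the same untreated libraries in both terms and are given as a description. The libraries of the compared times did not overlap for any of the 10 in any of the 3 comparisons. Over all tested genes, 70.2% did not overlap at 3 h against 0 h (34.8% higher and 35.4% lower), 71.7% at 6 h against 0 h (36.2% and 35.5%) and 55.2% at 6 h against 3 h (27.2% and 28%). In the F test for any difference among the 3 times, all 10 were called (edgeR adjusted p from 3.14e-11 for SESN2 to 5.43e-08 for CEBPB), as were 77.7% of tested genes.

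Untreated replicate 3 was the highest of its group for 8 of the 10 regulators and the lowest for 1, CEBPG. Without it, no call of the 10 against 0 h was lost, and the log2 changes moved by at most 0.08, for CEBPB. The direction and call of the 10 also held under the other scalings of the libraries, where the share of higher genes among all called ones moved more. At 3 h against 0 h this share was 49.5% with TMM, 36.0% with upper-quartile factors and 31.8% with library size alone. At 6 h against 0 h the same shares were 50.5%, 39.2% and 32.8%.

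Levels of different genes were set side by side per kilobase of exon. The length of a gene was the union of all its exons in GENCODE v29, whichever transcripts the cells use. The SDs below do not include error in this length, so close places in the order are uncertain. ATF4 was the most abundant of the 10 at each time, with 417 ± 13.5 CPM per kb at 0 h, 589 ± 4.96 at 3 h and 381 ± 13.7 at 6 h (SD, n = 3 each). The other 9 ranged at 0 h from 69.3 ± 0.219 CPM per kb for SESN2 to 6.30 ± 0.160 for ATF3, in the order SESN2, TRIB3, CEBPB, CEBPG, CHAC1, DDIT3, DDIT4, ATF5 and ATF3. Among these neighbours, CHAC1 and DDIT3 overlapped within 1 SD. At 3 h the order was TRIB3, CEBPG, SESN2, ATF5, CEBPB, CHAC1, DDIT3, DDIT4 and ATF3, and the pairs TRIB3 and CEBPG, SESN2 and ATF5, and CEBPB and CHAC1 overlapped within 1 SD. ATF5 thereby stood at place 5 of 10 with 32.2 ± 1.86 CPM per kb, against place 9 with 14.4 ± 0.385 at 0 h. At 6 h CEBPG led the 9 with 28.5 ± 0.384 CPM per kb, overlapping with TRIB3 within 1 SD, as did TRIB3 with SESN2 and ATF5 with CEBPB. ATF3 was lowest at each time, with 1.62 ± 0.0501 CPM per kb at 6 h.

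**Figure D3:**
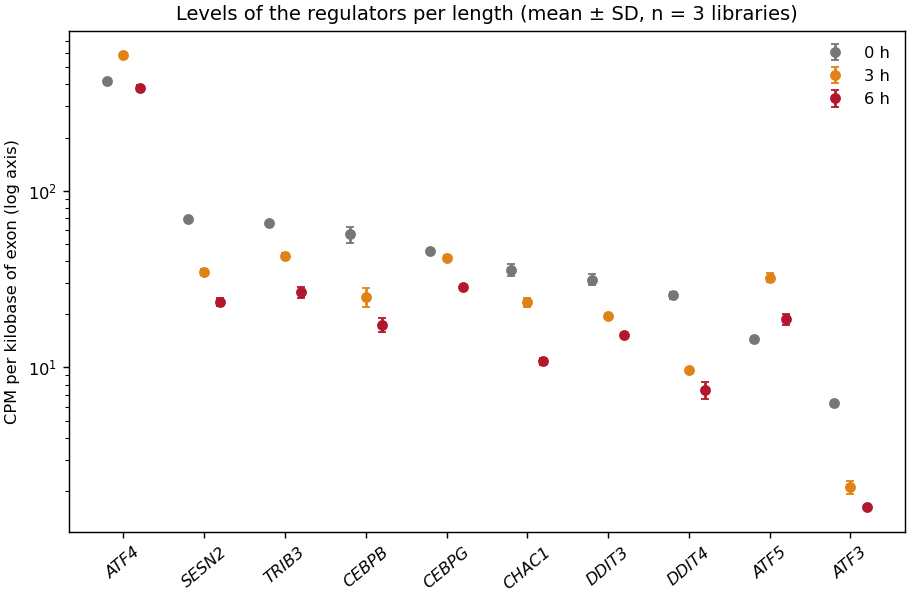
Level of each regulator per kilobase of exon (CPM per kb, log axis) at 0 h, 3 h and 6 h, as mean ± SD of 3 libraries, ordered by the 0 h level. ATF4 lies far above the rest at each time, ATF5 rises in the order at 3 h, and ATF3 is lowest throughout.

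The genes whose course over the 9 libraries lay nearest to each regulator were found by the root mean square distance of log2 CPM, centred on the 0 h mean, among 11739 candidate genes. HYLS1 was nearest to ATF4 (distance 0.03), RBM4B to ATF5 (0.08), DLGAP4 to ATF3 (0.09), PLEKHH3 to CEBPB (0.10) and WEE1 to CEBPG (0.04). TMEM42 was nearest to DDIT3 (0.04), NLRX1 to DDIT4 (0.09), CCND3 to TRIB3 (0.03), STAT5A to SESN2 (0.07) and SYTL1 to CHAC1 (0.04). The regulators were not each other's nearest genes. The closest pairings among the 10 were DDIT4 for ATF3 and SESN2 for CEBPB, each at rank 36, whereas the best of the other 9 stood at rank 2511 for ATF5, 3430 for CEBPG and 6401 for ATF4.

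The genes around the regulators were described from lists of the pathway. With TMM, the shares over all tested genes were 32.8% higher and 33.5% lower at 3 h and 35.7% higher and 35% lower at 6 h. With library size alone, 10919 of 15847 tested genes were called at 3 h (31.8% of them higher) and 11160 at 6 h (32.8% higher). With upper-quartile factors these numbers were 10706 (36.0% higher) and 11088 (39.2% higher). List counts under those scalings are to be read against these numbers. Upstream, the 4 eIF2 kinases divided. EIF2AK4 (GCN2), which senses uncharged tRNA, fell at both times, with 27.1 ± 2.70 CPM at 0 h, 15.7 ± 0.427 CPM at 3 h and 12.7 ± 0.594 CPM at 6 h. Its log2 changes against 0 h were -0.79 (SE 0.0738, adjusted p = 3.99e-07) and -1.09 (SE 0.0753, adjusted p = 1.37e-08). EIF2AK3 (PERK), the kinase of the endoplasmic reticulum, rose at both, with 149.9 ± 14.8 CPM at 0 h, 190.3 ± 6.60 CPM at 3 h and 203 ± 1.07 CPM at 6 h. Its log2 change was 0.34 at 3 h (adjusted p = 0.000277, but adjusted p = 0.0569 with library size alone) and 0.44 at 6 h (adjusted p = 2.80e-05). EIF2AK2 (PKR), which senses double-stranded RNA, had a change of 0.28 at 3 h that did not pass (adjusted p = 0.0795, but adjusted p = 0.0144 without untreated replicate 1) and of 0.50 at 6 h that did (adjusted p = 0.00432, against 0.0973 with library size alone). EIF2AK1 (HRI), the heme-sensing kinase, did not pass, with changes of 0.00 and -0.01, though with library size alone they were -0.20 and -0.25 and were called.

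Among the subunits of eIF2 and of its exchange factor eIF2B, 5 of 8 rose and 1 fell at 3 h (median 0.35), and 6 rose and 2 fell at 6 h (median 0.81), where 1 fell without 6 h replicate 10. EIF2S1, the subunit that the kinases phosphorylate, was 1.92-fold higher at 3 h and 1.83-fold higher at 6 h than at 0 h (log2 changes 0.94 and 0.87, adjusted p = 2.21e-09 and 3.22e-09). EIF2B2 was 1.82-fold and 2.14-fold higher. Of 10 tested genes that dephosphorylate eIF2 or act on its kinases, 6 rose and 3 fell at 3 h (3 rose with upper-quartile factors or library size alone), and 4 rose and 3 fell at 6 h (1 rose and 5 fell with library size alone), the 6 h counts being near the shares over all tested genes. PPP1R15A (GADD34), the stress-induced phosphatase subunit and itself an ATF4 target, was lower at 6 h, with 31.8 ± 2.22 CPM at 6 h against 53.0 ± 1.53 CPM at 0 h (-0.74, adjusted p = 1.14e-07). At 3 h PPP1R15A had a change of 0.20 (adjusted p = 0.0114) that was lost without 3 h replicate 7 (adjusted p = 0.0530) and was -0.01 with library size alone. PPP1R15B, its constitutive counterpart, rose at 3 h (0.35, adjusted p = 0.000156, but adjusted p = 0.0615 against a minimum fold of 1.2). DNAJC3, a co-chaperone described as an inhibitor of PKR and PERK, rose 4.12-fold at 3 h and 3.48-fold at 6 h.

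Downstream, the ATF4 target lists were mixed at 3 h and mostly lower at 6 h. Of 12 tested enzymes of amino acid synthesis, 3 rose and 5 fell at 3 h (median -0.09), and 1 rose and 10 fell at 6 h against 0 h (median -0.44). With upper-quartile factors or library size alone, 9 fell at 3 h. CTH, which makes cysteine from cystathionine, fell 1.80-fold at 3 h and 4.81-fold at 6 h, and GPT2, the mitochondrial alanine transaminase, 1.17-fold and 2.13-fold. ALDH18A1 rose, with 161 ± 6.72 CPM at 0 h, 220 ± 2.88 CPM at 3 h and 233 ± 11.6 CPM at 6 h. ASNS, asparagine synthetase and a common readout of ATF4, averaged 572 ± 3.10 CPM at 0 h, 710.0 ± 15.2 CPM at 3 h and 589 ± 27.6 CPM at 6 h. It was higher at 3 h (0.31, adjusted p = 4.45e-05, but adjusted p = 0.109 against a minimum fold of 1.2), where the change was 0.11 with library size alone (adjusted p = 0.0225). The change of 0.04 at 6 h did not pass (adjusted p = 0.438) and was -0.11 with upper-quartile factors and -0.19 with library size alone. Under both of those scalings ASNS was called lower at 6 h.

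Of 11 amino acid transporters, 6 rose and 3 fell at 3 h with TMM, but 2 rose and 5 fell with library size alone, and at 6 h 1 rose and 7 fell (median -0.17). SLC38A2, the glutamine and neutral amino acid carrier SNAT2, fell 2.84-fold at 3 h and 4.70-fold at 6 h, and SLC43A1, a carrier of large neutral amino acids, 1.61-fold and 2.53-fold. Of 13 genes of tRNA charging, 5 rose and 3 fell at 3 h with TMM, but 2 rose and 7 fell with library size alone. At 6 h none of the 13 rose and 8 fell against 0 h (median -0.15), though 2 rose without 6 h replicate 10. WARS1 fell 1.16-fold at 3 h and 1.82-fold at 6 h, and AARS1 1.28-fold and 1.56-fold. TARS1 rose from 196 ± 2.84 CPM at 0 h to 268 ± 3.36 CPM at 3 h, and YARS1 from 473 ± 6.23 CPM to 595 ± 8.48 CPM. At 6 h TARS1 and YARS1 stood at 210 ± 9.24 CPM and 504 ± 25.3 CPM and were not called higher than at 0 h.

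The list of other ATF4 and CHOP targets had the lowest median of the target lists at both times, with 12 of 20 tested genes lower and 4 higher at 3 h (median -0.23) and 15 lower and 3 higher at 6 h (median -0.56). Its genes with the smallest p included BBC3, KLHL24, PCK2, VLDLR, ADM2 and STC2. BBC3 (PUMA), a pro-apoptotic BH3-only protein, had the largest fall of the list, with 14.5 ± 1.65 CPM at 0 h, 0.904 ± 0.259 CPM at 3 h and 0.576 ± 0.184 CPM at 6 h. It was 16.0-fold lower at 3 h (log2 change -4.00, SE 0.173, adjusted p = 5.32e-10) and 24.8-fold lower at 6 h (-4.64, SE 0.188, adjusted p = 2.25e-10) than at 0 h. Its step of -0.63 at 6 h against 3 h was not called, though it was under some alternatives, DESeq2 among them (adjusted p = 0.0244). BCL2L11, named after its values were seen, was higher, with 36.2 ± 1.36 CPM at 0 h, 69.0 ± 1.41 CPM at 3 h and 62.7 ± 1.10 CPM at 6 h. KLHL24, a substrate adaptor of a ubiquitin ligase, fell 2.17-fold at 3 h and 5.67-fold at 6 h, to 11.7 ± 0.321 CPM at 6 h against 66.6 ± 6.18 CPM at 0 h. PCK2, the mitochondrial phosphoenolpyruvate carboxykinase, fell 1.90-fold and 3.65-fold, and VLDLR, a lipoprotein receptor, 2.89-fold and 4.40-fold. ADM2, a secreted peptide of the adrenomedullin family, fell 3.10-fold and 4.11-fold, and STC2, the secreted stanniocalcin 2, 2.18-fold and 3.08-fold. The step between 3 h and 6 h was mostly down in the target lists. At 6 h against 3 h, 10 of 12 synthesis genes fell and 1 rose (0 without 3 h replicate 6 or 6 h replicate 11), and 11 of 11 transporters fell. There 10 of 13 charging genes fell and none rose, and 13 of 20 other targets fell and 1 rose. Over all tested genes, 21.5% were called higher and 21.9% lower in this comparison. Against a minimum fold of 1.2, the numbers that fell were 6, 6, 3 and 8. With that minimum 2504 of the 15847 tested genes were called, 45.4% of them higher.

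**Figure D4:**
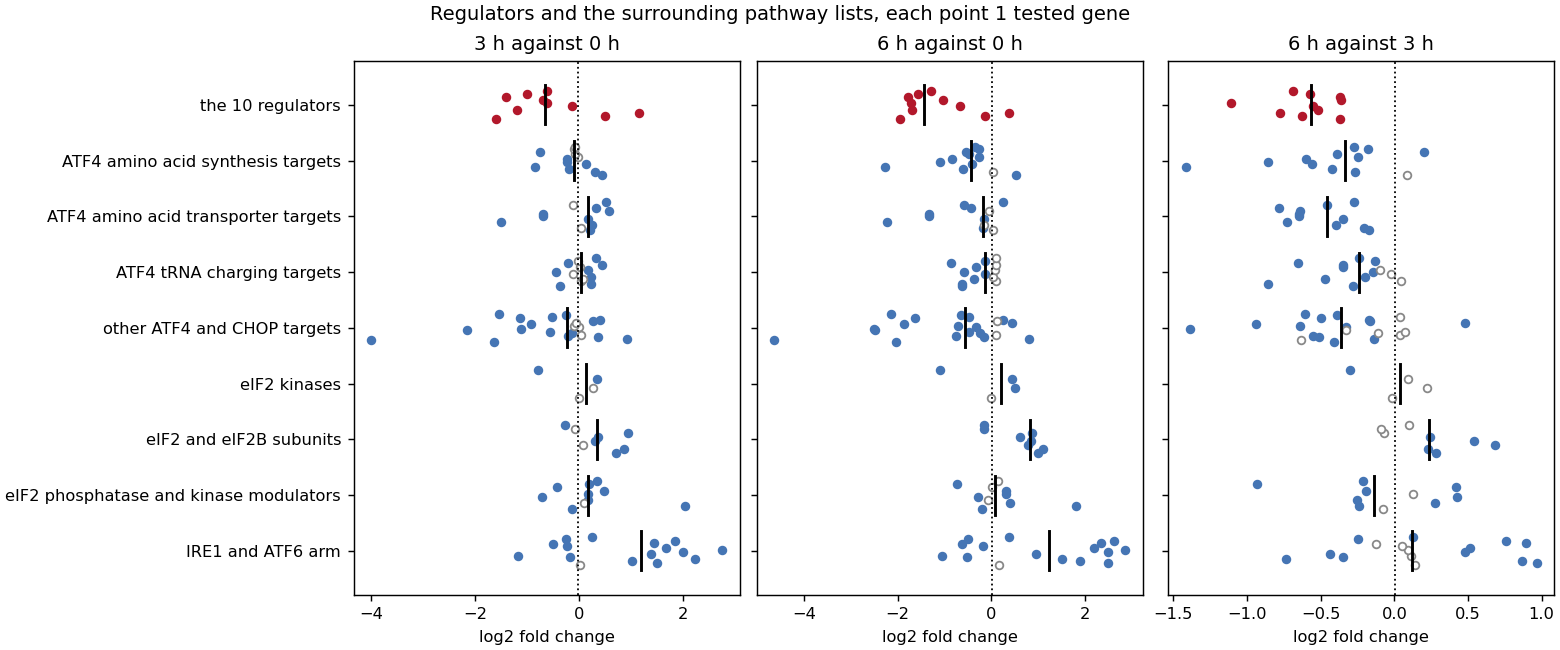
Log2 fold changes (horizontal axes) of the 10 regulators and of 8 pathway lists in the 3 comparisons; each point is 1 tested gene, filled where its adjusted p was under 0.05 and open where not, and black bars are list medians. At 6 h against 0 h the bars of the 4 target lists stand at -0.44, -0.17, -0.15 and -0.56, and the bar of the regulators at -1.43.

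Among relatives of the regulators, counts for the bZIP factors were close to the shares over all tested genes at 3 h (32.8% higher and 33.5% lower). Those for the paralogs were not. Of 25 tested bZIP factors outside the 10, 8 rose and 10 fell at 3 h (4 rose with library size alone), and 7 rose and 12 fell at 6 h. TEF and DBP had the smallest p of this list against 0 h at both times. TEF averaged 18.5 ± 1.87 CPM at 0 h, 54.1 ± 0.791 CPM at 3 h and 44.1 ± 0.936 CPM at 6 h. DBP averaged 17.9 ± 1.71 CPM, 4.81 ± 0.246 CPM and 6.12 ± 0.444 CPM at these times. CREM, a factor of the cyclic AMP response, was 1.88-fold higher at 6 h than at 0 h (0.91, adjusted p = 1.28e-08), and BATF3, known for its part in dendritic cell development, was 4.54-fold lower (-2.18, adjusted p = 1.57e-08). The C/EBP genes CEBPA and CEBPD had too few reads to be tested. Of 5 tested paralogs of TRIB3, SESN2 and CHAC1, 4 fell at 3 h and none rose, and 3 fell and 1 rose at 6 h. On the log2 scale TRIB2 fell by 0.66 at 3 h and 0.93 at 6 h, SESN1 by 0.46 and 0.71, and SESN3 by 0.68 and 0.94, all called. CHAC2 was the paralog that rose at 6 h, with a mean of 24.6 CPM at 0 h, 25.1 CPM at 3 h and 32.2 CPM at 6 h. TRIB1 averaged 47.8 CPM at 0 h, 42.2 CPM at 3 h and 50.3 CPM at 6 h. Against 0 h it was called lower at 3 h and was not called at 6 h. Of 5 tested genes of ATF4 protein turnover, 2 rose and 2 fell at 3 h, where 1 fell without untreated replicate 1 or 2 or 3 h replicate 5 or 7.

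The other arms of the unfolded protein response, which signal through IRE1 and ATF6 and not through eIF2, held more genes that rose than fell. Of 16 genes of those arms, 10 rose and 5 fell at 3 h (median 1.21), of which 3 fell without any 1 of untreated replicates 1 and 2, 3 h replicates 5 and 7 and 6 h replicates 10 and 11. At 6 h 10 rose and 5 fell against 0 h (median 1.22). HSPA5 (BiP), the main chaperone of the endoplasmic reticulum, averaged 325 ± 2.07 CPM at 0 h, 2205 ± 21.9 CPM at 3 h and 2354 ± 121 CPM at 6 h, and was 6.79-fold higher at 3 h and 7.25-fold higher at 6 h than at 0 h. DNAJB9, a co-chaperone under XBP1, was 4.72-fold higher at 3 h and 2.83-fold higher at 6 h. ERN1, which encodes IRE1 itself and was singled out after its values were seen, had the largest fall of the list, with 64.6 ± 7.55 CPM at 0 h, 28.6 ± 1.81 CPM at 3 h and 30.96 ± 1.23 CPM at 6 h. It was 2.26-fold lower at 3 h (log2 change -1.18, adjusted p = 2.03e-08) and 2.09-fold lower at 6 h (-1.06, adjusted p = 4.21e-08) than at 0 h. Over the same hours DDIT3 was 1.61-fold and 2.06-fold lower, and EIF2AK3 (PERK) was higher (log2 changes 0.34 and 0.44). The activity of the arms was not tested.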

How the data were processed

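Counts of reads per Ensembl gene, not normalised, were deposited by the authors for 9 Ramos libraries, 3 per time. The submitters' processing notes name the aligner GSNAP 2015-12-31, the read counter HTSeq 0.6.0, limma 3.30.0 and the build hg19, and the table carries HTSeq's summary entries. The annotation release and the strand setting are not given in the sources used here. From 67.6% to 70.9% of reads lay in genes, and 5 summary entries were set aside. The entry for ambiguous reads held 2.53% to 2.76% of reads, which are in no gene's count. Whether reads of DDIT3 or ATF5 were among these is not known. Symbols were matched by identifier. The limit that 0 counts allow was 0.0567 to 0.0647 CPM per library (3 counts, counting error only).

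The fit used edgeR 4.0.16 in R 4.3.3 (robust quasi-likelihood, TMM, filterByExpr with minimum count 10 and total 15, 1 mean per time, all 9 libraries, 6 residual degrees of freedom). Of 28412 genes with any count, 15847 were kept. Tests were two-sided, with Benjamini-Hochberg adjustment over the kept genes and a threshold of 0.05. The biological coefficient of variation was 6.53%. P-values rest on the spread between libraries of the same time, which the series calls biological replicates. This spread was estimated over all 9 libraries together and drew in part on other genes. The test of 6 h against 3 h thus also used the untreated libraries. Without untreated replicate 3, 8103 of 16045 tested genes were called in it, in place of 6871 of 15847. The procedure was tested on simulated data.

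The 10 members and the pathway lists were chosen with earlier results of these data known. All 10 members are given, and from each list up to 4 genes with the smallest p per comparison plus a fixed set (eIF2 kinases, PPP1R15A, PPP1R15B and paralogs of members), of which the text gives a part. ERN1, EDEM1, SEL1L and BCL2L11 were named outside this rule. Exon lengths and overlaps came from GENCODE v29, and promoter windows from RefSeq (GRCh38.p14, 250 bases before to 50 after a start); no coordinates were converted. Genes of like course needed a symbol and a mean of at least 1 CPM.

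The tools DESeq2 1.42.0 and limma-voom (limma 3.58.1) were alternatives. So were scaling by DESeq2's size factors, by the upper quartile or by library size alone, testing without a filter or with 1 CPM in at least 3 libraries, fitting only the compared groups, requiring a fold of 1.2, and leaving out each library. Their use on the lists was added after seeing the data. Plots used matplotlib 3.10.9 and Python 3.11.15.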

Additional observations from a re-analysis of the deposited data

Results flagged for a closer look

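For each of the 10 regulators, the log2 change at 6 h differed from that at 3 h in the edgeR test of 6 h against 3 h itself, where 43.4% of tested genes were also called. The 6 h minus 3 h difference was -0.63 for ATF4, -0.37 for ATF3, -0.78 for ATF5, -0.52 for CEBPB and -0.55 for CEBPG. It was -0.36 for DDIT3, -0.37 for DDIT4, -0.69 for TRIB3, -0.57 for SESN2 and -1.11 for CHAC1. For ATF4 the sign against 0 h differed between the times, 0.50 at 3 h and -0.13 at 6 h. Groups of 3 libraries are too small for a test of single outlying libraries.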

How the results depend on the processing

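No paired analysis was possible because the replicate numbers are not shared between the times. Over 18 alternatives per comparison, 528 of 540 values of the 10 regulators kept their direction and call, 12 lost the call and none changed sign. Counts lower ranged over 7 to 8 at 3 h against 0 h, 8 to 9 at 6 h against 0 h and 7 to 10 at 6 h against 3 h, and counts higher did not move (2, 1 and 0). The F test called 10 under each of its 16 alternatives. The lost calls were CEBPG at 3 h (adjusted p = 0.153 without a filter, and 4 fits that leave out a library), ATF4 at 6 h against 0 h (adjusted p = 0.0832 without a filter, 0.0664 without 6 h replicate 10), both of these against a minimum fold of 1.2, and ATF3, DDIT3 and DDIT4 between 3 h and 6 h against that minimum. Signs reversed for EIF2AK1 at 3 h (-0.15 with upper-quartile factors, -0.20 with library size alone), PPP1R15A at 3 h (-0.0072 with library size alone) and ASNS at 6 h (-0.11 and -0.19 under those scalings), the cause of which was not tested. Against the minimum fold of 1.2, the 3 h calls of ASNS, EIF2AK3, GPT2, PPP1R15A, PPP1R15B and WARS1 were also lost. Of the counts over the pathway lists, 98 values under an alternative lay over 1.5 times from the reported count. Against a minimum fold of 1.2, 2504 tested genes were called at 6 h against 3 h, in place of 6871. With library size alone the median of all genes was -0.22 at both times against 0 h, and with upper-quartile factors -0.17 and -0.13. With 3 libraries per time from 1 line and no time-matched untreated cells, drug and time are not separable.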
